A study of Homo sapiens with 3 samples.

Results

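The p300/CBP peaks described here lie around HMGA1 on chromosome 6 and around the overlapping genes HMGA2 and RPSAP52 on chromosome 12. A peak was taken when its centre lay in the body of one of these 3 genes or within 250 kb of its transcription start site (TSS) on hg19, so that position chose the peaks and the difference between conditions did not. This gave 77 peaks of the 122221 in both lists, with 55 of 82901 from cells given the control siRNA (siCTL) and 22 of 39320 from cells given siRNAs against Fra-1 (siFra-1). The cells were MDA-MB-231, a long-established human model line of triple-negative breast cancer, which makes large amounts of the AP-1 protein Fra-1, the product of FOSL1. Both groups were transfected at 4.5 nM, siCTL with a commercial negative control and siFra-1 with a mix of 3 siRNAs, and were fixed 72 h later for 7 min before ChIP-seq with an antibody that recognises p300 and CBP. The third sample of the series, input DNA, was not analysed here. Replicate immunoprecipitations were pooled before library preparation, so each condition is 1 library, no difference between conditions has a replicate check, and no test of the conditions was run. The lists give only where each peak lies, without heights, scores or reads. The depth of sequencing is therefore unknown, and the lists hold no measure of the Fra-1 protein. All intervals are at 95%, cover counting error over peaks alone and compare these libraries.

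HMGA1 and HMGA2 are small architectural proteins of the high mobility group that bind the minor groove of AT-rich DNA through AT-hooks and bend or open chromatin for other factors. Both are abundant in the embryo, low in most adult tissues and found again in many carcinomas, where they favour proliferation and invasion. RPSAP52 is a transcribed pseudogene of RPSA, which encodes a ribosomal protein, and it is read antisense to the start of HMGA2. HMGA2 mRNA is a target of the let-7 microRNAs. p300 and CBP are related lysine acetyltransferases that are brought to enhancers and promoters by transcription factors, among them AP-1 dimers of Fos and Jun proteins, which bind the motif TGAGTCA, read on the opposite strand as TGACTCA. HMGA1 and RPSAP52 are among the genes that the study followed because they respond to Fra-1, which raises the question of where p300/CBP sat around them with and without Fra-1 depletion.

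HMGA1 (ENSG00000137309) lies on the plus strand at chr6:34204650-34214008. HMGA2 (ENSG00000149948) lies on the plus strand at chr12:66218240-66360071, and RPSAP52 (ENSG00000241749) on the minus strand at chr12:66151800-66220777. The bodies of HMGA2 and RPSAP52 overlap by 2538 bp and their start sites are 2537 bp apart. The rule applied to HMGA2 alone and to RPSAP52 alone found the same numbers of peaks, 25 in siCTL and 18 in siFra-1, and they are treated as 1 locus. Positions upstream and downstream are given from the HMGA2 TSS at this locus unless RPSAP52 is named.

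The DNA under the peaks was read from the GRCh37 assembly (hg19), plus strand, 5′ to 3′. The first set, from the HMGA2-RPSAP52 locus, shows 200 bp around the AP-1 motif, in capitals, of 3 wide peaks called in both lists far upstream of HMGA2, because these peaks hold 4 of the 5 AP-1 motifs that lie under peaks of the locus.
HMGA2-RPSAP52 shared peak, 193 kb upstream, chr12:66025496-66025695: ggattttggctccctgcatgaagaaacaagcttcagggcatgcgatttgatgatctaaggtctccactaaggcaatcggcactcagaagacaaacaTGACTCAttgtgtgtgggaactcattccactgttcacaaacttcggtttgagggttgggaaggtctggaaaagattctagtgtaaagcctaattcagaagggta
HMGA2-RPSAP52 shared peak, 175 kb upstream, chr12:66042896-66043095: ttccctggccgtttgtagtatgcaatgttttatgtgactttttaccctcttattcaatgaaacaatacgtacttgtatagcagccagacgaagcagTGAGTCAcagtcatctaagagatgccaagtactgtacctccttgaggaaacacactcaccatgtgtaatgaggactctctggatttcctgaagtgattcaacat
HMGA2-RPSAP52 shared peak, 167 kb upstream, chr12:66050691-66050890: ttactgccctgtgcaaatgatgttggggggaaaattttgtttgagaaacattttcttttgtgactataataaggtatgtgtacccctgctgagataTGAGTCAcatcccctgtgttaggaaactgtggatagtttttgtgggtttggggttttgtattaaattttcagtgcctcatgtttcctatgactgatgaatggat

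The second set comes from the HMGA1 body, where the AP-1 motifs under siCTL peaks were only in part under siFra-1 peaks. The first of these is a whole siCTL peak of intron 4 whose last bases reach exon 5, the next is the start of the widest siCTL peak, and the last is a whole siFra-1 peak with a pair of AP-1 motifs in opposite orientation. AP-1 motifs are again in capitals.
HMGA1 siCTL peak without siFra-1 overlap, chr6:34211002-34211251: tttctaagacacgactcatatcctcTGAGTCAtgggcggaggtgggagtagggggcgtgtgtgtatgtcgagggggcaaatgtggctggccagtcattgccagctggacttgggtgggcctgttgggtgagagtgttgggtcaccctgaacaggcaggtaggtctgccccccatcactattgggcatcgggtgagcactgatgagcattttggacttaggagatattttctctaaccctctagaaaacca
HMGA1 start of the widest siCTL peak, chr6:34211752-34211951: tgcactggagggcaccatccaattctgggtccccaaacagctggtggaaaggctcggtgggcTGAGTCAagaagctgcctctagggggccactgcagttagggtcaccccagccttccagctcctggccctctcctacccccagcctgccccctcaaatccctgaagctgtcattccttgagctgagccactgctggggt
HMGA1 siFra-1 peak, chr6:34212452-34212551: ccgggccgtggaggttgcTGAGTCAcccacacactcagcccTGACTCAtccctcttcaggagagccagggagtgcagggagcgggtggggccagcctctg

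The third set gives the central 200 bp of the widest peaks without an AP-1 motif, both in intron 3 of HMGA2, the former called in siFra-1 alone and the latter in both lists.
HMGA2 siFra-1 peak, 55.7 kb downstream, chr12:66273827-66274026: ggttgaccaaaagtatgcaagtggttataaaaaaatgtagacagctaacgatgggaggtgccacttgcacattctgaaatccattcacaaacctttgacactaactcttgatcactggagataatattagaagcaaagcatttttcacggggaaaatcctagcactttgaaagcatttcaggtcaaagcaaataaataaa
HMGA2 siCTL peak of a shared pair, 124 kb downstream, chr12:66342577-66342776: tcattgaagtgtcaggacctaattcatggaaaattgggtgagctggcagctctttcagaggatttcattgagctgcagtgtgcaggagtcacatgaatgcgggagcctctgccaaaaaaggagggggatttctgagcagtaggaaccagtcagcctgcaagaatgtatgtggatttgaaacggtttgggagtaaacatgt

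Peaks called around HMGA1 were far fewer in siFra-1 than in siCTL, whereas the number around HMGA2 and RPSAP52 differed less. Around HMGA1 there were 30 siCTL peaks and 4 siFra-1 peaks, which is 0.133 siFra-1 peaks for each siCTL peak (exact Clopper-Pearson bounds 0.0341 to 0.378). Around HMGA2 and RPSAP52 there were 25 and 18, for which this ratio of siFra-1 to siCTL was 0.720 (0.370 to 1.37). The ratio of the whole lists was 0.474 (0.469 to 0.480), so that HMGA1 lay under it with its whole interval, whereas the interval of HMGA2-RPSAP52 held it. The HMGA1 interval did hold it for windows of 100 kb (17 siCTL and 4 siFra-1 peaks, ratio 0.235, 0.0576 to 0.721) and of 500 kb (55 and 17, ratio 0.309, 0.168 to 0.541). For peaks over 100 bp the HMGA1 ratio was 0.5 (0.0452 to 3.49), an interval that held the whole-list ratio for such peaks, 0.858. The intervals of the loci meet between 0.370 and 0.378, and the difference between the loci was not tested.

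The same count was made around all 20162 protein-coding genes to show how common such ratios were. A gene window held a median of 16 siCTL and 7 siFra-1 peaks, and in the 14463 windows with at least 10 siCTL peaks the median ratio was 0.434 (quartiles 0.310 and 0.571). The HMGA1 ratio was reached or undercut in 518 of these windows, or 3.58%. The HMGA2-RPSAP52 ratio was reached or undercut in 13102 of them, or 90.6%. HMGA1 thus stood near the lower end of the gene windows and HMGA2-RPSAP52 in the upper part, neither being alone there. Neighbouring windows share peaks, so the windows are not independent.

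**Figure D1:**
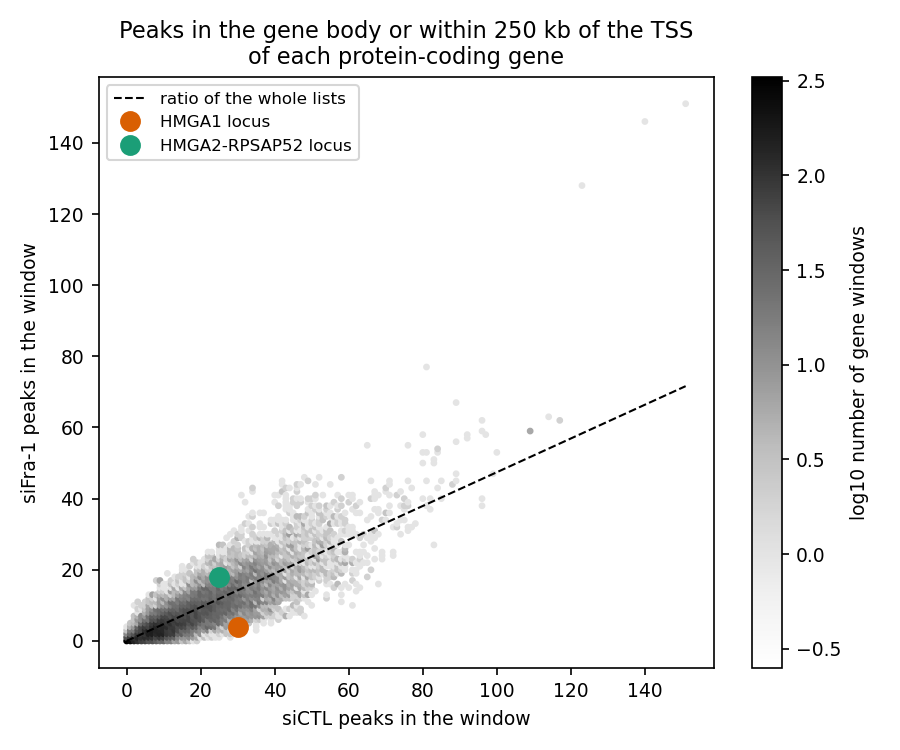
Number of siFra-1 peaks (y axis) against siCTL peaks (x axis) in the body or within 250 kb of the TSS of each protein-coding gene, with darker grey for more gene windows (log10 scale) and a dashed line for the ratio of the whole lists, 0.474. The HMGA1 locus lies at 30 siCTL and 4 siFra-1 peaks, below the line, and the HMGA2-RPSAP52 locus at 25 and 18, above it.

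Peak number and covered length gave different pictures of the loci. At HMGA1 the covered length went from 3950 bp in siCTL to 700 bp in siFra-1, a ratio of 0.177. At HMGA2-RPSAP52 it was 5100 bp and 5350 bp, a ratio of 1.05, with fewer but wider peaks in siFra-1. The corresponding ratio of the whole lists was 0.632, between the values of the loci. As height is not given, width is the only measure of the size of a peak, and 100 bp is the smallest width in either list.

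Most of the difference in number at both loci was among 100 bp peaks. At HMGA1 this was the width of 26 of 30 peaks in siCTL and 2 of 4 in siFra-1, a ratio of 0.0769 (0.00885 to 0.307). At HMGA2-RPSAP52 it was 18 of 25 and 4 of 18, a ratio of 0.222 (0.0547 to 0.675), whereas 100 bp peaks of the whole lists had a ratio of 0.398 (0.392 to 0.403). Above 100 bp the loci went apart. HMGA1 had 4 in siCTL and 2 in siFra-1, for a ratio of 0.5 (0.0452 to 3.49), and HMGA2-RPSAP52 had 7 and 14, a ratio of 2.0 (0.755 to 5.86), both intervals holding 1. In the whole lists this ratio was 0.858 (0.837 to 0.880).

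The HMGA2-RPSAP52 locus was rich in wide peaks in both conditions. Peaks of 250 bp and over are called wide here, and the siCTL list has 4.41% of them, the siFra-1 list 15.2%. At HMGA2-RPSAP52 they were 7 of 25 in siCTL (28.0%, Wilson interval 14.3% to 47.6%) and 11 of 18 in siFra-1 (61.1%, 38.6% to 79.7%). Among protein-coding gene windows, 1.27% held as many wide siCTL peaks or more, and 0.565% held as many wide siFra-1 peaks or more, the medians being 0 and 1. Wide peaks were more numerous in siFra-1 over the whole lists too, 3655 and 5989, a ratio of 1.64 (1.57 to 1.71), next to which the ratio of 1.57 at HMGA2-RPSAP52 (0.556 to 4.78) did not stand apart. HMGA1 had 2 wide siCTL peaks and 1 wide siFra-1 peak, numbers that 22.4% and 50.2% of windows reached.

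At HMGA1, 3 of the 4 siFra-1 peaks of this window lay in or near the gene. A window of 500 kb held 17 siFra-1 peaks, so this describes the window of 250 kb alone. Within 15 kb of the TSS, which takes in the whole gene, there were 10 siCTL and 3 siFra-1 peaks. Farther away there were 20 siCTL peaks and 1 siFra-1 peak. All 20 of these distant siCTL peaks were 100 bp wide and none was overlapped by a siFra-1 peak. In the whole siCTL list 83.4% of peaks were 100 bp wide, and 3.79% of those were overlapped. The lack of overlap is therefore near the background for this width. The distant siCTL peaks were scattered over both sides, from 236 kb upstream to 236 kb downstream, with no bin of 50 kb holding more than 5 of them.

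**Figure D2:**
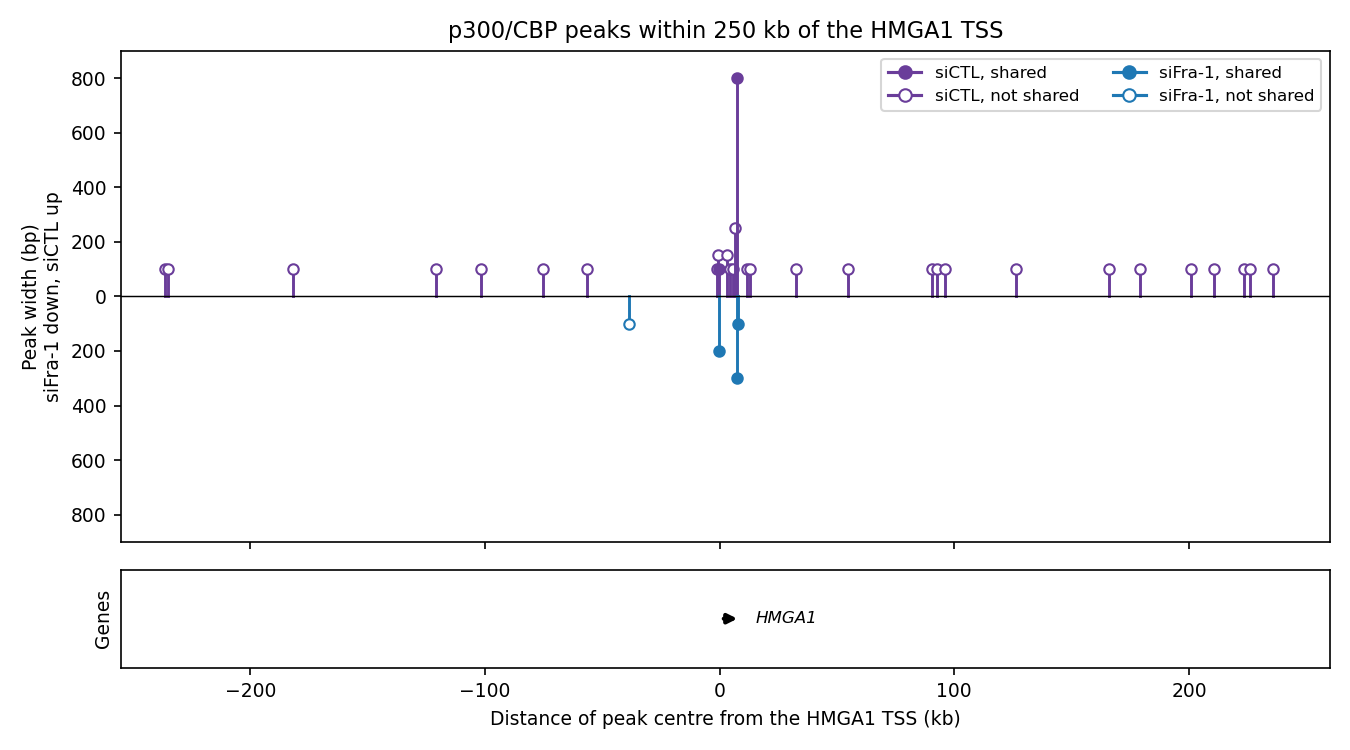
Peaks around HMGA1 by the distance of their centre from the TSS (x axis, kb), with the width of each siCTL peak in bp drawn upwards and of each siFra-1 peak downwards; filled points are shared with the other list and open points are not. Of 30 siCTL peaks 2, both within 15 kb of the TSS, are shared, against 9.56% of the whole siCTL list, and siFra-1 has 4 peaks.

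The distant siCTL peaks fell in and between the neighbouring genes. RPS10-NUDT3, a readthrough gene that joins the ribosomal protein gene RPS10 to NUDT3, held the most peaks of any gene of the locus, 7 in siCTL and 0 in siFra-1. NUDT3, which encodes a diphosphoinositol polyphosphate phosphatase and overlaps this readthrough gene, held 5 siCTL peaks, all of them among those 7. GRM4, a metabotropic glutamate receptor gene upstream of HMGA1, held 3 in siCTL and 0 in siFra-1. These small counts per gene body were not set against those of other genes. HMGA1 itself held 5 siCTL and 2 siFra-1 peaks in a body of 9.36 kb. It was, with the long noncoding RNA gene ENSG00000288879 at its start site (2 siCTL peaks and 1 siFra-1 peak), where siFra-1 peaks shared with siCTL were found.

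The start site of HMGA1 had a peak in both conditions. Within 1.5 kb of the TSS there were 3 siCTL peaks, all upstream, of 100 bp at chr6:34203402-34203501, of 150 bp at chr6:34204102-34204251 and of 100 bp at chr6:34204352-34204451. The siFra-1 list had 1 peak there, of 200 bp at chr6:34204252-34204451. It covered the siCTL peak nearest to the TSS in full, and its first base came just after the end of the 150 bp siCTL peak. The siFra-1 peak and the siCTL peaks at chr6:34204102-34204251 and chr6:34204352-34204451 lie over an exon of ENSG00000288879. The siCTL peak farthest from the TSS lies between genes. None of the peaks within 1.5 kb of the TSS holds an AP-1 motif. The GC content of the siFra-1 peak was 71.5%.

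The introns of HMGA1 held the widest peak of either locus, and this peak was narrower and split in siFra-1. In siCTL it was 800 bp wide, at chr6:34211752-34212551 in intron 5, with its centre 7.5 kb downstream of the TSS. In siFra-1 it was met by a 300 bp peak at chr6:34211952-34212251 and a 100 bp peak at chr6:34212452-34212551, together 400 bp. Among the 782 siCTL peaks of 500 bp and over in the whole list, 66 (8.44%) were overlapped by at least 2 siFra-1 peaks and 47 (6.01%) by siFra-1 peaks that summed to at most 50% of their width. These shares were computed after the HMGA1 peaks had been seen, and they say that both features occurred elsewhere but were uncommon.

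The AP-1 motifs of this 800 bp stretch differed in whether siFra-1 peaks covered them. It holds 3, at chr6:34211814-34211820, chr6:34212470-34212476 and chr6:34212493-34212499. The first, printed above within the start of the siCTL peak, was outside any siFra-1 peak. The other pair lies 7.82 and 7.85 kb downstream of the TSS and falls in the 100 bp siFra-1 peak printed above. The wider siFra-1 peak of 300 bp between them has no AP-1 motif.

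Another HMGA1 peak with an AP-1 motif was called in siCTL alone. It was 250 bp wide, at chr6:34211002-34211251, mostly in intron 4, with the motif at chr6:34211027-34211033, and the nearest siFra-1 peak began 700 bp away. The other siCTL peaks of the body were a 150 bp peak in intron 2 and 100 bp peaks in intron 3 at chr6:34209202-34209301 and chr6:34210202-34210301. None of these 3 held the motif or overlapped a siFra-1 peak. The intron 2 peak lies in a region that the study took as a control without Fra-1 or Fra-2 signal. In all, 5 AP-1 motifs of the HMGA1 locus lay under siCTL peaks and 2 of these under siFra-1 peaks. The fifth was far upstream, at −56.4 kb, in a 100 bp siCTL peak between genes.

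**Figure D3:**
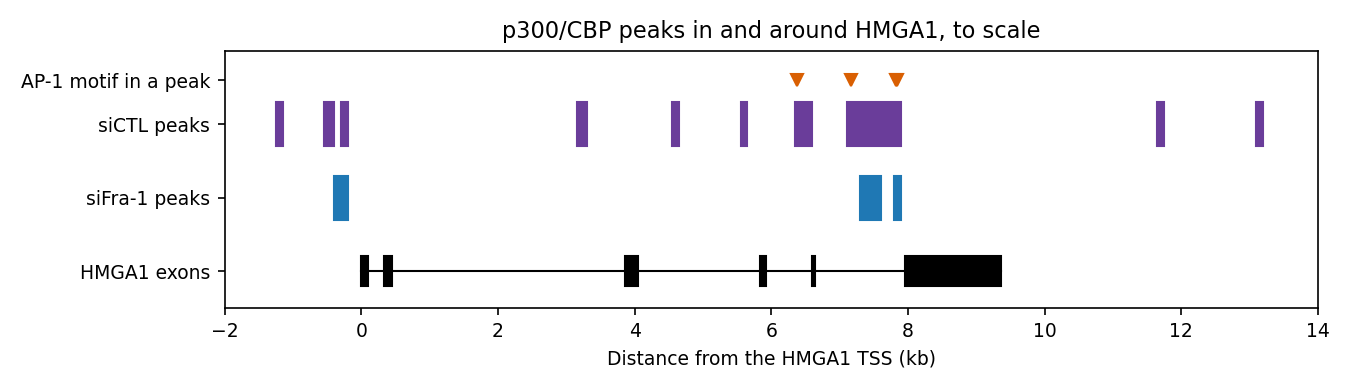
Peaks in and around HMGA1 drawn to scale by distance from the TSS (x axis, kb), with rows for the AP-1 motifs within peaks (triangles), siCTL peaks, siFra-1 peaks and HMGA1 exons (black boxes); the right-most triangle stands for a pair of motifs at 7.82 and 7.85 kb. The siCTL row has 10 peaks here and the siFra-1 row 3, and the 800 bp siCTL peak in intron 5 is met by siFra-1 peaks of 300 and 100 bp.

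Overlap at HMGA1 was near the background from the side of siCTL and above that of all widths from the side of siFra-1. Of the 30 siCTL peaks 2 shared at least 1 bp with a siFra-1 peak (6.67%, Wilson interval 1.85% to 21.3%), against 9.56% of all siCTL peaks. Of the 4 siFra-1 peaks 3 shared bases with a siCTL peak (75%, 30.1% to 95.4%), against 19.1% of all siFra-1 peaks. Wider siFra-1 peaks of the whole list were overlapped more often, 28.1% at 150 to 200 bp and 68.2% at 250 bp and over. The siFra-1 peaks of 300 and 100 bp in intron 5 met the same 800 bp siCTL peak. The remaining siFra-1 peak was 100 bp wide at chr6:34166052-34166151, between genes and 38.5 kb upstream of the TSS. The 28 siCTL peaks without overlap lay a median of 41775 bp from the nearest siFra-1 peak, and 8 of them lay within 10 kb of it. The siCTL share is close to its background, and the siFra-1 share rests on 4 peaks. With a window of 500 kb the latter was 6 of 17 (35.3%, 17.3% to 58.7%).

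At HMGA2-RPSAP52 the wide siCTL peaks were all called again in siFra-1. Of the 25 siCTL peaks 8 were shared (32.0%, 17.2% to 51.6%), and of the 18 siFra-1 peaks 8 were shared (44.4%, 24.6% to 66.3%). Both intervals lay above the shares over peaks of all widths in the whole lists, 9.56% and 19.1%. All 7 wide siCTL peaks were overlapped (interval 64.6% to 100%), where 85% of wide siCTL peaks of the whole list were, so this count is near the background for such widths. Of the 18 siCTL peaks of 100 bp only 1 was overlapped, or 5.56%, against 3.79% over the whole list. Among siFra-1 peaks of this locus 0 of 4 of 100 bp were overlapped, against 6.56%, and 2 of 3 of 150 to 200 bp, against 28.1%. Sharing of siCTL peaks at this locus therefore followed width much as it did elsewhere, whereas these siFra-1 counts are too small to compare.

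Most shared peaks had nearly the same edges in both lists. Of the 8 pairs 2 had the same start and end, 5 had the same start, 4 had the same end, and 6 had both edges within 50 bp of each other, the width of 1 bin. The exceptions were the pairs 220.3 kb upstream and 124 kb downstream. Edges of shared pairs were not compared over the whole lists, so these counts have no background and do not mark the locus out. The identical pairs were those of 550 bp at chr12:66042852-66043401 and 600 bp at chr12:66050502-66051101, which are 175 and 167 kb upstream of HMGA2. Both hold AP-1 motifs, printed above, and both are in an intron of the long noncoding RNA gene ENSG00000256915.

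The other pairs upstream of HMGA2 were narrower in siFra-1. The peak 193 kb upstream, which holds the AP-1 motif at chr12:66025592-66025598, was 550 bp in siCTL and 500 bp in siFra-1. The peak 161 kb upstream, between genes, was 400 bp and 350 bp. The peak 220.3 kb upstream, in an intron of the long noncoding RNA genes MSRB3-AS1 and LINC02454, differed most, with 350 bp and 150 bp. Nearer to the start sites, the peak in intron 1 of RPSAP52 at chr12:66172902-66173301 was 400 bp in siCTL and 350 bp in siFra-1.

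Downstream of the HMGA2 TSS, intron 3 of HMGA2 held the remaining pairs. The peak at chr12:66342452-66342901, 124 kb downstream, was 450 bp in siCTL and 400 bp in siFra-1, with its siFra-1 edges lying 100 and 150 bp further upstream. The peak 67.7 kb downstream was 100 bp and 150 bp, and it was the only pair of the locus that was wider in siFra-1. Over the 7 wide siCTL peaks the siFra-1 width was smaller in 5, equal in 2 and larger in 0, with a median difference of −50 bp. Over the 3107 wide siCTL peaks of the whole list that were overlapped, the siFra-1 width was smaller in 35.7%, equal in 12.3% and larger in 52.0%, with a median difference of 50 bp. The shared wide peaks of HMGA2-RPSAP52 thus went the other way from the middle of the list, by the width of 1 bin. These 7 peaks were 350 to 600 bp wide in siCTL, whereas the list holds all widths from 250 bp. The comparison is thus not matched for width, and the difference was not tested.

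**Figure D4:**
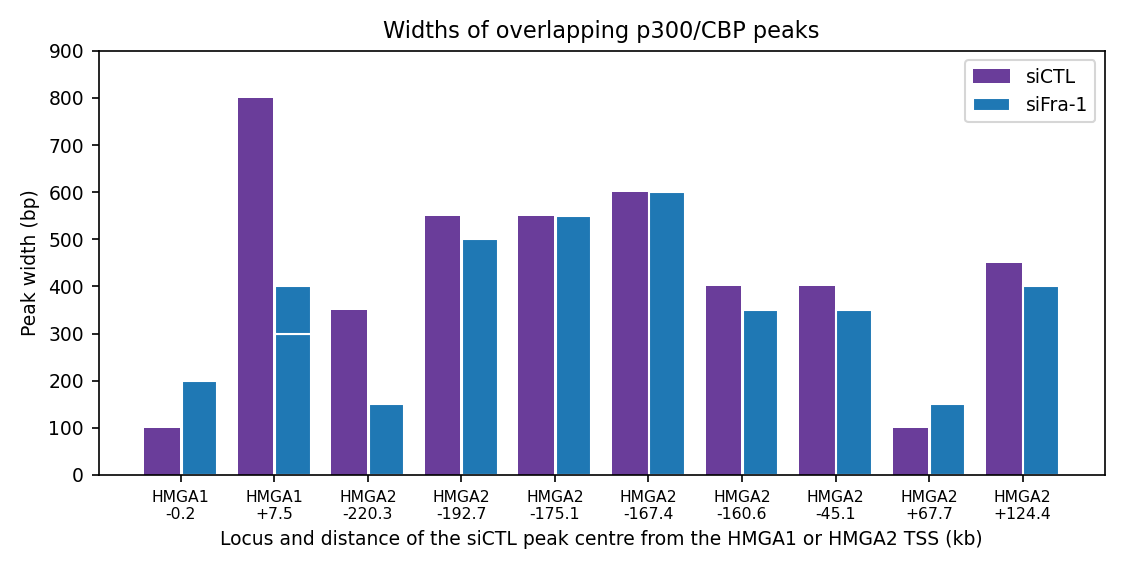
Widths in bp (y axis) of siCTL peaks, in purple, and of the siFra-1 peaks that overlap them, in blue, for every shared siCTL peak of the loci, named by locus and by the distance of the siCTL peak from the HMGA1 or HMGA2 TSS in kb; the divided bar adds the 300 and 100 bp siFra-1 peaks. The HMGA1 peak at 7.5 kb goes from 800 to 400 bp, and among the HMGA2-RPSAP52 pairs only that at 67.7 kb is wider in siFra-1.

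The peaks between 150 and 250 kb upstream of HMGA2 formed the densest group of the locus. This stretch held 11 siCTL and 8 siFra-1 peaks, with 5 wide peaks in siCTL and 5 in siFra-1, and the pairs there were 5 of the 8 of the locus. It lies over MSRB3-AS1 (8 siCTL and 4 siFra-1 peaks), LINC02454 (4 and 3) and ENSG00000256915 (6 and 4). MSRB3-AS1 spans LINC02454 in full and overlaps ENSG00000256915 in part, so these counts share peaks. Between 50 and 100 kb upstream there was no peak in either list. All 4 AP-1 motifs that were under peaks of both lists at this locus were in this group, and the fifth found under a peak was in a 100 bp siCTL peak 117 kb upstream.

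Several of these peaks are places at which the study designed ChIP-qPCR primers for Fra-1 binding near RPSAP52. Of 5 primer pairs, 4 were placed on hg19 by an exact match of both primers, and the position of the fifth was not used here. Their amplicons lie 47.7, 163, 178 and 195 kb downstream of the RPSAP52 TSS, that is, on the upstream side of HMGA2. The sign in the study's name for the farthest of them puts it on the opposite side of the RPSAP52 TSS, and the position used here is that of the match. All 4 fell within peaks of both lists, with siCTL and siFra-1 widths of 400 and 350 bp, 400 and 350 bp, 550 and 550 bp, and 550 and 500 bp in the same order. Regions that the study selected as bound by Fra-1 therefore carried p300/CBP peaks in siFra-1 of nearly the siCTL width. The study itself reported that RPSAP52 was among the genes whose p300/CBP signals did not change. By ChIP-qPCR it also reported that Fra-1 binding was lost at such regions after siFra-1. The regions were chosen by the study and do not stand for the locus at large, and a peak of the same width can differ in height. The peaks at 47.7 and 163 kb have no TGAGTCA or TGACTCA, but each holds 1 match to the looser TGANTCA.

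The body of HMGA2 held more wide peaks in siFra-1 than in siCTL. It held 8 siCTL peaks, of which 1 was wide, and 5 siFra-1 peaks, of which 4 were wide. Wide peaks were also more numerous in siFra-1 across the genome, 5989 against 3655, a ratio of 1.64 (1.57 to 1.71). The counts of 1 and 4 are small and were not tested against that ratio, so they do not mark HMGA2 out. The siFra-1 list had a 350 bp peak at chr12:66271002-66271351 and a 550 bp peak at chr12:66273652-66274201, 52.9 and 55.7 kb downstream of the TSS, both in intron 3 and within HMGA2-AS1, which is antisense to it. The nearest siCTL peaks to them were 9500 and 7750 bp away. In siCTL, HMGA2-AS1 held 3 peaks, all of 100 bp and none at these positions.

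The start site of HMGA2 had a peak in siFra-1 only. It was 300 bp wide at chr12:66218352-66218651, over exon 1 with its 5′ untranslated region, 0.262 kb downstream of the TSS, in the part where RPSAP52 overlaps HMGA2. No siCTL peak lay within 1.5 kb of the HMGA2 TSS. The siCTL list instead had a 100 bp peak at chr12:66220652-66220751, 2000 bp away, in intron 1 of HMGA2 and 0.0755 kb from the RPSAP52 TSS. Each start site of this overlapping pair therefore carried a peak in 1 list alone, HMGA2 in siFra-1 and RPSAP52 in siCTL. In the whole lists 3.79% of siCTL peaks of 100 bp and 68.2% of siFra-1 peaks of 250 bp and over were overlapped. A 100 bp siCTL peak without overlap is thus usual, and the contrast rests on 1 peak at each start site and was not tested. RPSAP52 as a whole held 3 siCTL and 3 siFra-1 peaks, of which 1 and 2 were wide.

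**Figure D5:**
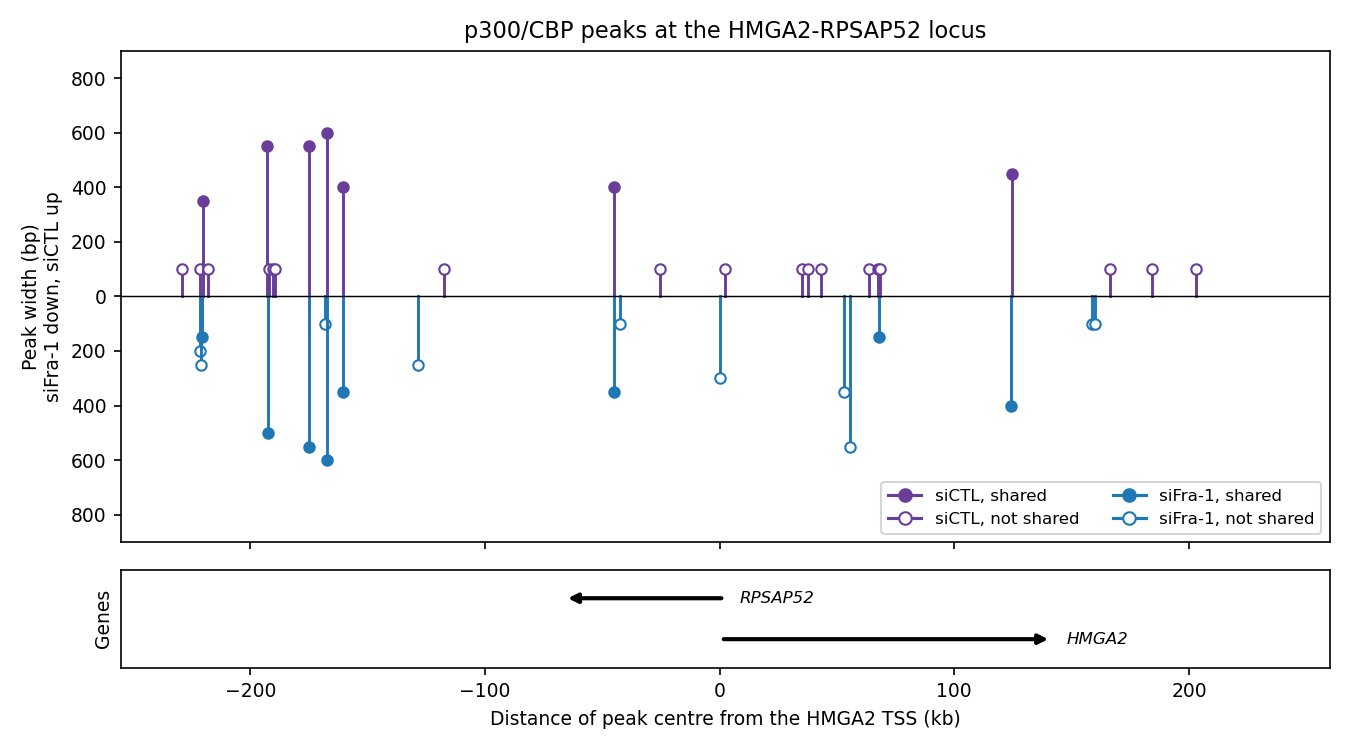
Peaks at the HMGA2-RPSAP52 locus by the distance of their centre from the HMGA2 TSS (x axis, kb), with the width of each siCTL peak in bp drawn upwards and of each siFra-1 peak downwards; filled points are shared with the other list, open points are not, and arrows below give both genes and their direction. All 7 wide siCTL peaks are filled and mirrored in siFra-1, while wide open points occur in siFra-1 alone.

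The peaks called in 1 list alone differed in width between the conditions. The 17 siCTL peaks without overlap were all 100 bp wide, as were 88.7% of such siCTL peaks in the whole list, so this count is near the background. The 10 siFra-1 peaks without overlap ranged from 100 to 550 bp, and 5 of them were wide, against 6% of such siFra-1 peaks in the whole list. Beside the 3 in HMGA2 just described, these were 250 bp peaks at chr12:65997302-65997551 in an intron of LINC02454 and at chr12:66089402-66089651 between genes. The former stood 250 bp from a siCTL peak and the latter 11150 bp from the nearest. Of the 11 wide siFra-1 peaks 6 were shared (54.5%, 28.0% to 78.7%), against 68.2% of all wide siFra-1 peaks. The siCTL peaks without overlap lay a median of 5900 bp from the nearest siFra-1 peak, and 11 of 17 lay within 10 kb.

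AP-1 motifs were in a small share of the peaks. The motif was sought on both strands as TGAGTCA or TGACTCA in the central 200 bp, where 6.15% of all siCTL and 9.08% of all siFra-1 peaks hold it. At both loci together it was in 6 of 55 peaks in siCTL (10.9%, 5.10% to 21.8%) and in 3 of 22 in siFra-1 (13.6%, 4.75% to 33.3%), and both intervals held the share of the list. Over the whole width of the peak these were 7 of 55 (12.7%, 6.30% to 24.0%) and 4 of 22 (18.2%, 7.31% to 38.5%), against 4.63% and 8.43%, so that the siCTL interval then lay above the share of the list. In the central 400 bp they were 12 of 55 (21.8%, 12.9% to 34.4%) and 5 of 22 (22.7%), against 10.7% and 14.7%. The looser TGANTCA was in the central 200 bp of 12 of 55 (21.8%) and 7 of 22 (31.8%, 16.4% to 52.7%), against 9.69% and 13.1%. With both of these the siCTL interval lay above the list, and with TGANTCA the siFra-1 interval did too. These shares are not matched for width, and the loci are richer in wide peaks than the lists. Wide peaks made up 16.4% of siCTL peaks against 4.41%, and 54.5% of siFra-1 peaks against 15.2%. Among wide peaks 5 of 9 in siCTL and 3 of 12 in siFra-1 held TGAGTCA or TGACTCA over the whole width, against 41.6% and 32.5% of wide peaks in the whole lists. Of the AP-1 motifs under siCTL peaks, 2 of 5 were under siFra-1 peaks at HMGA1 and 4 of 5 at HMGA2-RPSAP52, against 45.1% of such motifs in the whole lists. These counts of 5 are too small to set apart from that share. None of the 10 siFra-1 peaks called alone at HMGA2-RPSAP52 held one, including the wide peaks printed and described in HMGA2.

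Other motifs were searched in the same windows on both strands. The TEAD motif GGAATG was in 7 of 55 siCTL and 4 of 22 siFra-1 peaks, against 13.2% and 17.4% of the whole lists. The RUNX motif TGTGGT was in 4 of 55 and 3 of 22, against 15.6% and 17.6%. Neither stands apart from the background within its counting error. The SP/KLF motif GGGCGG was in 7 of 30 siCTL peaks of HMGA1 (23.3%, 11.8% to 40.9%) and in 1 of 25 of HMGA2-RPSAP52 (4.0%), against 4.3% of all siCTL peaks. This window reaches beyond a peak narrower than 200 bp, as 28 of these 30 are, and inside the peaks themselves, counted after these values had been seen, the motif was in 3 of 30 at HMGA1 and 0 of 25 at HMGA2-RPSAP52, against 2.88%. In siFra-1 it was in 2 of 22 central windows at both loci, against 5.23%, and inside 2 of 22 peaks, against 4.5%. The CRE motif TGACGTCA was in 0 of 55 and 0 of 22 peaks, which allows shares of up to 6.53% and 14.9% (Wilson), against 0.141% and 0.158%.

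The base composition of the loci differed in the same sense as that of the ground they lie on. The median GC content of HMGA1 peaks was 50.5% in siCTL and 66.8% in siFra-1, in a window with 49.4% GC. That of HMGA2-RPSAP52 peaks was 43.0% and 43.4%, in a window with 39.5%. The medians of the whole lists were 44.7% and 45.0%. With 4 siFra-1 peaks, of which 3 are at the start site and in intron 5, the HMGA1 value in siFra-1 says little of the locus.

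Genes related to the members were counted by the same rule, namely HMGB1 to HMGB3 and HMGN1 to HMGN5 of the high mobility group, LIN28A and LIN28B, which restrain let-7, the RNA-binding IGF2BP1 to IGF2BP3, RPSA, and the Fra genes FOSL1 and FOSL2. All 16 had fewer siFra-1 than siCTL peaks, with a median ratio of 0.420. For the 11 of them with at least 10 siCTL peaks it was 0.424, where gene windows with as many had 0.434. The highest was that of HMGN1, a nucleosome-binding protein, with 6 siCTL and 5 siFra-1 peaks and a ratio of 0.833 (0.201 to 3.28). The lowest was that of HMGN5, with 1 and 0. HMGA1, at 0.133, was under all of them but HMGN5, and HMGA2, at 0.720, was above all of them but HMGN1. Close to HMGA1 came IGF2BP2, where 61 peaks in siCTL stood against 10 in siFra-1. Its value of 0.164, with bounds of 0.0749 and 0.322, was wholly below the 0.474 of the whole lists. Close to HMGA2 came FOSL1, at 0.698 from 43 and 30 peaks. Each of these values fell inside the interval of the member gene beside it, so the ranks do not set HMGA1 or HMGA2 apart. RPSA, the parent gene of RPSAP52, had 21 and 5 peaks, a ratio of 0.238 (0.0701 to 0.649).

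Numbers of wide peaks near the related genes were mostly equal. Their number was equal in both lists for 10 of the 16 genes, larger in siFra-1 for 4 and smaller for 2. Among the equal ones, HMGB1, HMGN1, HMGN5 and RPSA had 0 wide peaks in both lists, so there was nothing to compare. The smaller numbers were those of HMGN4, with 3 and 0, and FOSL1, with 7 and 6. The larger were those of HMGB2, with 1 and 2, and of HMGN3, IGF2BP1 and IGF2BP3, with 0 and 1 each. None of the 16 had as many wide siFra-1 peaks as HMGA2, whose 7 wide siCTL peaks were equalled by FOSL1 alone. HMGN2 and LIN28A lie next to each other and share peaks.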

How the data were processed

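Chromatin immunoprecipitation with sequencing (ChIP-seq) of p300/CBP was represented by 1 deposited list of hg19 peak positions per condition. The authors pooled replicate immunoprecipitations, aligned reads with BWA-backtrack per their methods (Bowtie2 per the submitters' processing notes), processed uniquely aligned reads with PASHA in bins of 50 bp, scaled them, subtracted background and called runs above a threshold of 25 (gap 50 bp, run 50 bp) with the Integrated Genome Browser. One processing parameter of undefined meaning differed between the lists. Another scaling would change the number and width of peaks, and absence of a peak is not absence of signal.

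Intervals were read as BED and starts raised by 1, so printed starts may be 1 bp off. Genes came from GENCODE release 44 lifted to GRCh37. Counting used Python 3.11.15, numpy 2.4.6, pandas 2.3.3, scipy 1.17.1 and matplotlib 3.10.9, and was tested on simulated data. Peaks with at least 1 bp in common were called shared. The rule named all shared peaks, all of 250 bp and over, those in a member gene with an AP-1 motif or within 1.5 kb of a member TSS, those over a ChIP-qPCR amplicon, the protein-coding gene with the most peaks at each locus, and the related genes with the lowest and highest ratio. Other genes and peaks, such as RPSA, were named after their values were seen. Members and lists were chosen with earlier results of these data known. Alternatives were minimum widths, windows of 100 and 500 kb, merging within 500 bp, membership by any base, and other overlap rules and motif windows.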

Additional observations from a re-analysis of the deposited data

How the results depend on the processing

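Of the values recomputed under the alternatives, 46 moved by less than their 95% counting interval and 13 by more. With no test there was no call to lose or reverse. With peaks of at least 150 bp in both lists, the siFra-1 to siCTL ratio was 0.5 at HMGA1 and 2.0 at HMGA2-RPSAP52, the share of siCTL peaks overlapped was 25.0% and 100%, and the share of siCTL peaks with an AP-1 motif was 27.3%. With peaks of at least 250 bp these ratios were 0.5 and 1.57, the siCTL shares overlapped 50% and 85.7%, the siFra-1 share overlapped at HMGA1 100%, and the AP-1 share 33.3%. These filters leave few peaks, at HMGA1 4 and 2 siCTL peaks. When overlap had to cover 50% of both peaks, the siFra-1 share overlapped at HMGA1 was 25.0%. The ratio under 1 at HMGA2-RPSAP52 thus depends on the 100 bp peaks, and the whole lists had 1.64 (1.57 to 1.71) for peaks of at least 250 bp. The ratio at HMGA1 was 0.235 (0.0576 to 0.721) for a window of 100 kb and 0.309 (0.168 to 0.541) for 500 kb. Both of these intervals held the 0.474 of the whole lists. Under both width filters the HMGA1 interval held the whole-list ratio for such widths, 0.858 for peaks over 100 bp and 1.64 for 250 bp and over. With 500 kb the siFra-1 share overlapped at HMGA1 was 35.3%. The AP-1 share was 21.8% in siCTL with the central 400 bp or with TGANTCA, and 31.8% in siFra-1 with TGANTCA. Inside the peaks alone, an alternative chosen after seeing the data, the SP/KLF share of HMGA1 siCTL peaks was 10.0% (3.46% to 25.6%).

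No paired analysis was possible because each condition is 1 library. The unknown depth and the absence of peak heights limit all comparisons, since a peak just under the threshold cannot be told from none, and depth, enrichment or scaling of the libraries cannot be told apart from occupancy.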
